A study of Mus musculus with 4 samples.

Results

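The genes described here are 44 interferon-stimulated genes, chosen by name as a set that interferons are known to induce. Of these, 43 were in the table of 32285 genes, and Mx1 was not. Their unique molecular identifiers (UMIs, each a counted RNA molecule) were summed gene by gene and together in cell classes defined by marker genes, in each of 4 single-cell RNA-seq libraries. The genes themselves, with the other list genes, were left out of the clustering that defined the classes.

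The cells came from sensory cortex, taken as the core of the infarct plus a rim of about 2 mm, of C57BL/6N mice, all male and 10 months old. One group had sham surgery and an isotype antibody, and the other 3 had dMCAO stroke and then isotype antibody, anti-VCAM1 or anti-VLA4, in each case for 10 weeks. VCAM1 is an adhesion molecule of activated endothelium, and VLA4 is the leukocyte integrin that binds it. By its title, the study asked about cerebral vessels and cognition late after stroke under either blockade. Each group was 1 library made from the pooled tissue of 4 to 5 mice, stained for CD31 and CD45, so single animals cannot be told apart and no test between groups was possible. Below, sham and stroke without further words mean the isotype-treated groups, and runs of 4 values follow the order sham, stroke, anti-VCAM1 and anti-VLA4.

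Interferons are secreted proteins that signal through paired receptors on the cell surface to the kinases JAK1, JAK2 and TYK2. Type I interferon acts through a complex that includes STAT2 and IRF9 and binds the interferon-stimulated response element (ISRE), and interferon gamma acts through the gamma-activated site (GAS). The genes induced include sensors of foreign nucleic acid, enzymes that block viral RNA, and GTPases that attack intracellular pathogens. In the brain, endothelial cells, microglia and border macrophages are all able to respond.

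RefSeq promoters (build GRCm38.p6, 250 bases before to 50 after the start) were matched for 32 of the 44 genes. The ISRE core, GAAANNGAAA on either strand, was in the promoters of 20 of them (62.5%), against 3.99% of 27025 genes with a promoter of this length. The GAS letters TTCNNNGAA were in 8 (25%), against 9.55% of all genes, and 6 genes held both. All 4 matched guanylate-binding protein genes and all 4 matched sensor genes had the ISRE core, but only 1 of the 3 matched transcription factor genes. These matches are letters in a window and not measured binding. The 250 bases before the start are shown for 5 genes on which the results below turn, with ISRE and GAS letters in capitals. Isg15 had 3 ISRE cores that overlap each other, Ifit3 had 2, Rsad2 and Gbp2 had 1 each, and Bst2 had 2 ISRE cores, 1 of them overlapped by a GAS.
Isg15, chr4:156200819-156201068, minus strand: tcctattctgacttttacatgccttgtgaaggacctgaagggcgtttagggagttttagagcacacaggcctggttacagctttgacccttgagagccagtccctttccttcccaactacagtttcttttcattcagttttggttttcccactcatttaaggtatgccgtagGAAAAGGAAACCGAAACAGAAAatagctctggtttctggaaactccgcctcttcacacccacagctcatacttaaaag
Ifit3, chr19:34583279-34583528, plus strand: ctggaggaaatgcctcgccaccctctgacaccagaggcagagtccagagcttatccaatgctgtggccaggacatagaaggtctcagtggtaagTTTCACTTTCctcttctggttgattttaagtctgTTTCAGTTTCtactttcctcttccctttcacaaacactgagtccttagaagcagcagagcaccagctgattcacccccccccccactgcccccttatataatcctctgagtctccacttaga
Rsad2, chr12:26456453-26456702, minus strand: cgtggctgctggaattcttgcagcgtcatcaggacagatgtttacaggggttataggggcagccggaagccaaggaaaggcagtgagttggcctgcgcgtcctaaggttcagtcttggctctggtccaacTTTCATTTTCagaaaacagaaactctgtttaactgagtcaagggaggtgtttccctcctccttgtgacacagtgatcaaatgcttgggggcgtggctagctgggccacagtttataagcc
Bst2, chr8:71537473-71537722, minus strand: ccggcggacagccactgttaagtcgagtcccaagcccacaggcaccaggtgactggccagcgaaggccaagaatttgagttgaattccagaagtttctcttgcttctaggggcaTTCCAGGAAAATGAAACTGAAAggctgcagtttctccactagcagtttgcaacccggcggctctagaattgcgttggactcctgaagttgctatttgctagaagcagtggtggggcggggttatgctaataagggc
Gbp2, chr3:142620413-142620662, plus strand: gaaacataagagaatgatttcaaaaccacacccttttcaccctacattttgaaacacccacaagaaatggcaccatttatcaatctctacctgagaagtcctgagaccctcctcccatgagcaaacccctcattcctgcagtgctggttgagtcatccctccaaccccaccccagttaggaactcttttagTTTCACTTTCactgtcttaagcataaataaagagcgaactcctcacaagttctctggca

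The 4 libraries held 1541, 2891, 4751 and 6361 deposited barcodes, of which 1516, 2832, 4662 and 6209 were kept as single cells. Median depth was 4516.5 to 5466 UMIs per kept cell. Endothelial-like cells numbered 551, 654, 2506 and 3246, microglia-like cells 692, 1487, 1820 and 2460, T cell-like cells 73, 247, 111 and 201, and border macrophage-like cells 116, 194, 63 and 90. Natural killer cells formed no cluster of their own and may be among the T cell-like cells. Most endothelial-like cells were in cluster 0 in sham (317 of 551), whereas clusters 1 and 3 together held more than cluster 0 in both antibody libraries, and cluster 3 was low in the nuclear RNA Malat1. The sham and stroke libraries shared 59 cell barcodes. In 56 of these, 1 library held over 10 times the UMIs of the other, and the deeper copy was in sham for 54. Results that move without the shared barcodes are given with both values.

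Levels are given as CPM, the UMIs of a gene per 1000000 UMIs of all cells of that class in that library. Log2 ratios of single genes are of CPM + 1. Intervals are exact 95% intervals of the counts (of the ratio itself, without the added 1). They cover counting error only, not differences between mice, libraries or cells. A gene was counted in a class if it had at least 100 UMIs over the 4 libraries, and past the fold means a ratio of at least 1.5 in either direction. A gene can reach 100 UMIs through 1 high library, so counts over the counted genes say nothing of the rest. Shares over all genes were computed for the main processing only, and do not apply to counts given under other processing. The anti-VCAM1 and anti-VLA4 libraries were both set against the same stroke library, so their ratios share its error. Ifit3 and Ifit3b, the Gbp genes and the Oas1 family are near copies, and how reads were split between them is uncertain. UMIs of different genes were not compared as levels.

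Summed over the 43 genes, border macrophage-like cells had the highest level of the 4 main classes in the sham, stroke and anti-VLA4 libraries, and endothelial-like cells had the highest in the anti-VCAM1 library. The summed level was 5724, 4354, 2815 and 5426 CPM in border macrophage-like cells. In endothelial-like cells it was 3078, 3749, 3245 and 3434 CPM. In T cell-like cells it was 2329, 2452, 2275 and 2649 CPM, and in microglia-like cells 970, 1019, 975 and 1068 CPM. Microglia-like cells were therefore lowest in every library. Without the 10 cells with the most member UMIs in each class and library, endothelial-like cells stood above border macrophage-like cells with anti-VLA4 (3358 against 3214 CPM). After stroke they were then at 3462 against 3483 CPM, and in sham at 2782 against 3305 CPM. Border macrophage-like cells spanned the widest range between libraries, and microglia-like cells the narrowest, 970 to 1068 CPM.

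**Figure D1:**
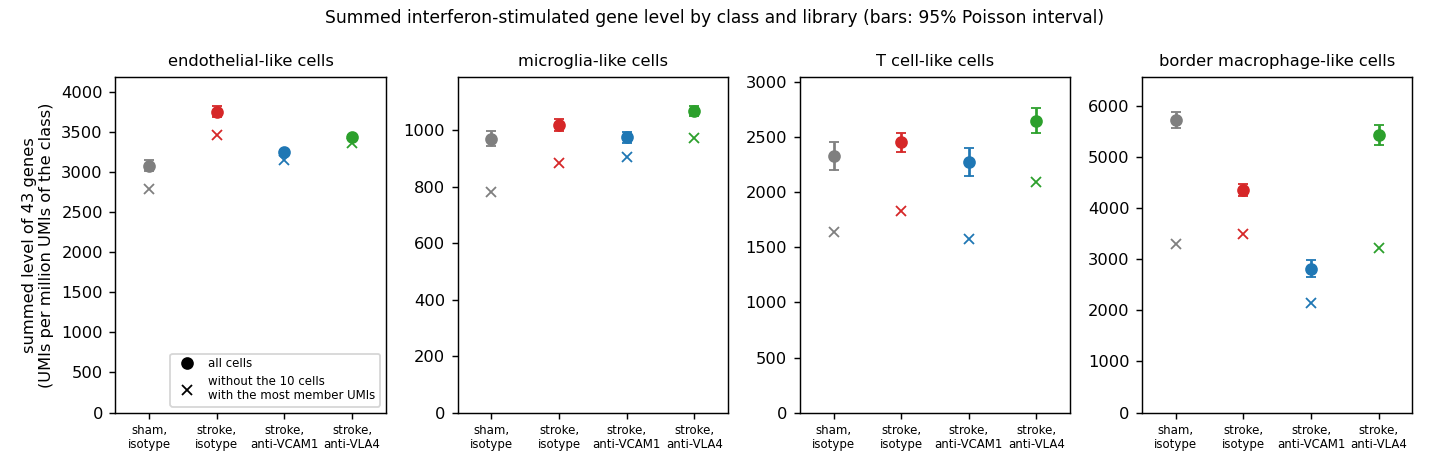
Summed level of the 43 interferon-stimulated genes (CPM) by library in 4 classes, with 95% Poisson intervals (circles) and without the 10 cells holding the most member UMIs (crosses). Border macrophage-like cells fall to 2815 CPM with anti-VCAM1, and their crosses for the other 3 libraries lie between 3214 and 3483 CPM.

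Gene by gene, 15 of the 43 were highest in endothelial-like cells in all 4 libraries. They included Ifit1, a protein that binds viral RNA lacking host cap marks, the sensor Ifih1, the factors Irf9 and Stat2, and Gbp2, Gbp3, Gbp7 and Gbp9. Another 9 were highest in border macrophage-like cells in all 4: Oas1a, Oas2, Ifi204, Ifi207, Bst2, Ifi27l2a, Trim30a, Rnf213 and Parp14. Ifi47, Gbp6 and Sp100 were highest in T cell-like cells in all 4, no gene was highest in microglia-like cells in all 4, and 16 changed class between libraries. Between the 2 largest classes, 37 of 43 genes were higher in endothelial-like than in microglia-like cells in all 4 libraries and 4 were lower (Ifi204, Ifi207, Ifi27l2a and Trim30a). Ifit1 was at 97.8 to 132 CPM in endothelial-like cells and at 1.58 to 8.24 CPM in microglia-like cells. Oas3 had 0 UMIs in endothelial-like cells of all 4 libraries, whereas border macrophage-like cells held 56. Endothelial markers summed to 19946 to 22566 CPM in endothelial-like cells and to 47 to 111 CPM in microglia-like cells.

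Smaller classes were too thin for ratios. Dendritic-like cells (41, 87, 34 and 23 cells) had 1782, 2612, 1401 and 1213 CPM, with 58.2% to 75.3% of it in 10 cells. B cell-like cells (15, 87, 28 and 41) had 1332, 1125, 1578 and 1799 CPM. Pericyte-like cells (9, 12, 52 and 94) had 541, 1299.9, 1788 and 1701 CPM. Astrocyte-like cells had 298, 833, 900.0 and 4361 CPM, where 1 of the 42 anti-VLA4 cells held 71.9% of the member UMIs. Plasma cell-like cells had 284 to 483 CPM.

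In endothelial-like cells, interferon-stimulated genes were higher after stroke than in sham, led by the Ifit family, the mitochondrial protein gene Ifi27l2a, the Z-form nucleic acid sensor Zbp1 and the GTPase genes Iigp1 and Gbp4. The summed level was 1.22-fold that of sham (log2 ratio 0.28, interval 0.24 to 0.33). Of 40 counted genes, 8 were at least 1.5-fold higher, where 4.97% of all 10794 counted genes were, and 0 were at least 1.5-fold lower, where 4.31% of all were. The median log2 ratio was 0.23 over the 40 genes and -0.02 over all genes, and 36 of the 40 were above 0. Without the shared barcodes the summed log2 ratio was 0.26 and 7 genes were past the fold, with no share over all genes computed.

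Ifit genes, which encode binders of viral RNA, had the highest ratio of summed levels of any role (log2 0.60, interval 0.44 to 0.76). Ifit3 was at 51.9, 96.1, 81.7 and 81.0 CPM, a log2 ratio of stroke to sham of 0.88 (interval 0.585 to 1.2). Ifit2 was at 21.4, 39.4, 21.2 and 26.6 CPM, so only the stroke library was high. Ifit3b was at 21.0, 38.4, 34.4 and 34.9 CPM. Ifit1, with the most UMIs of the family, was at 97.8, 117, 113 and 132 CPM and stayed under the fold. The family summed to 192, 291, 250 and 274 CPM.

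Isg15, a ubiquitin-like protein attached to other proteins, and Usp18, the protease that removes it, were both higher after stroke. Isg15 was at 210, 291, 324 and 347 CPM, with a log2 ratio of 0.47 (interval 0.31 to 0.63) for stroke over sham. It was higher again in both antibody libraries, by 0.15 (interval 0.05 to 0.26) with anti-VCAM1 and 0.25 (interval 0.15 to 0.36) with anti-VLA4. Usp18 was at 41.6, 64.7, 52.7 and 60.0 CPM. The OAS genes, a family named for enzymes that make the second messenger activating RNase L, stayed level after stroke. Oasl2 was at 95.9, 94.4, 80.4 and 91.6 CPM, and the 5 OAS genes summed to 153, 155, 130 and 142 CPM.

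The transcription factor genes Irf7, Irf9 and Stat2, which carry and amplify the interferon signal, summed to 204, 244, 240 and 250 CPM. In the antibody libraries they differed from each other. Irf7 was at 59.8, 69.2, 90.2 and 84.8 CPM, Irf9 stood at 69.3, 89.2, 88.3 and 101 CPM, and Stat2 was at 74.5, 85.4, 61.5 and 63.4 CPM. Among the sensors, Ddx58, which detects viral RNA ends, was at 74.9, 95.4, 65.9 and 69.2 CPM, and Eif2ak2, the kinase that halts translation on double-stranded RNA, was at 76.5, 88.5, 82.6 and 87.3 CPM. Zbp1 was at 2.77, 7.61, 5.51 and 5.69 CPM from only 7 sham UMIs. Ifih1 was at 97.8, 89.9, 75.5 and 86.5 CPM and had the lowest ratio after stroke.

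Among other antiviral effectors, Ifi27l2a was at 9.90, 24.6, 20.8 and 22.1 CPM, the highest log2 ratio after stroke (1.23, interval 0.63 to 2.03). Bst2, the tether that holds virus at the cell surface, was at 161, 182, 218 and 233 CPM, with both antibody libraries above stroke. Rsad2, which makes a chain-terminating nucleotide, was at 114, 141, 108 and 124 CPM. Xaf1 was at 125, 142, 156 and 168 CPM. The effectors thus moved both ways in the antibody libraries, and their sum was 642, 742, 759 and 808 CPM, above stroke in both.

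Among the GTPases, which attack the membranes around intracellular pathogens, Iigp1 and Gbp4 were past the fold after stroke, and past it in the other direction in both antibody libraries. Iigp1 was at 78.4, 128, 80.2 and 80.6 CPM, with a log2 ratio of -0.67 (interval -0.85 to -0.50) for anti-VCAM1 over stroke and -0.66 (interval -0.84 to -0.50) for anti-VLA4 over stroke. Gbp4 was at 41.6, 71.6, 35.7 and 36.8 CPM, the lowest log2 ratio of the 40 counted genes in both antibody comparisons (-0.98 and -0.94). Igtp was at 41.2, 61.9, 41.3 and 43.6 CPM. Gbp7, with the most UMIs of its family, was at 142, 189, 157 and 174 CPM, and Gbp3 at 86.8, 113, 103 and 104 CPM, both between sham and stroke in the antibody libraries. The 4 immunity-related GTPases summed to 223, 317, 233 and 239 CPM and the 7 guanylate-binding protein genes to 505, 661, 521 and 544 CPM.

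**Figure D2:**
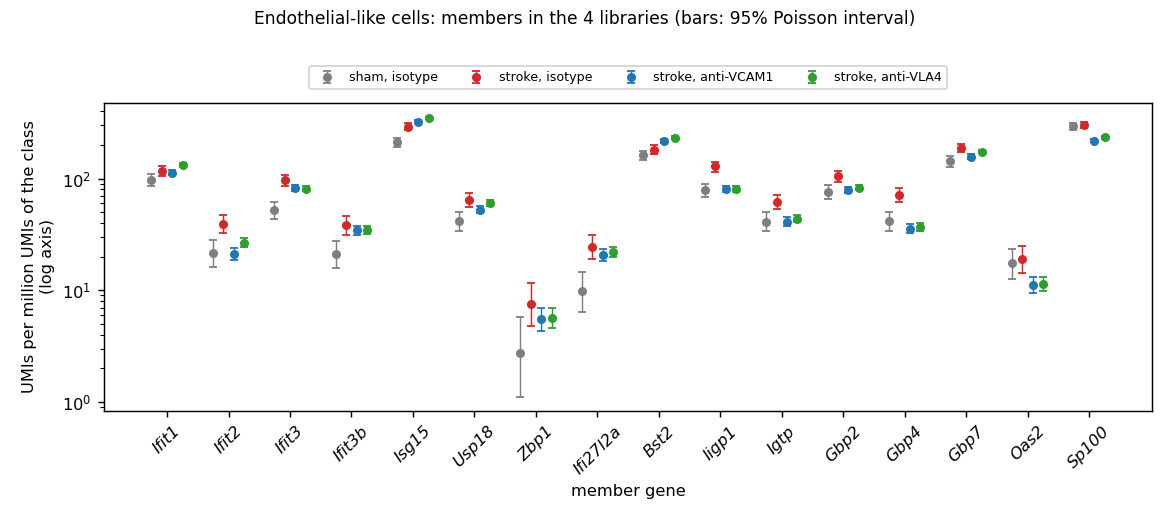
Levels of 16 interferon-stimulated genes in endothelial-like cells of the 4 libraries (CPM, log axis, bars are 95% Poisson intervals). The stroke library stands above the other 3 for Ifit2, Iigp1, Igtp and Gbp4, whereas Isg15 and Bst2 are higher in both antibody libraries than after stroke.

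As a sum, genes for ubiquitin ligases, ADP-ribosyl transferases and nuclear bodies differed little between stroke and sham and were lower in both antibody libraries. Sp100, a nuclear body component, was at 294, 300.5, 219 and 233 CPM. Parp14 was at 99.8, 115, 77 and 78.9 CPM and Rnf213 at 116, 116, 81.4 and 85.1 CPM. The 5 genes summed to 653, 698, 504 and 519 CPM. This sum was lower in the antibody libraries than in sham as well as than in stroke. Dtx3l ran from 47.2 CPM with anti-VCAM1 to 63.6 CPM after stroke.

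Over all the genes, the endothelial-like sum with anti-VCAM1 was 0.866 of that after stroke (log2 ratio -0.21, interval -0.24 to -0.18). With anti-VLA4 it was 0.916 (log2 ratio -0.13, interval -0.16 to -0.10). With anti-VCAM1, 4 of 40 genes were at least 1.5-fold lower (Ifit2, Oas2, Iigp1 and Gbp4), where 6.62% of all genes were, and 0 were higher, where 2.17% were. With anti-VLA4, 3 were lower (Oas2, Iigp1 and Gbp4), where 7.51% of all genes were, and 0 were higher, where 2.17% were. The median log2 ratio was -0.25 with anti-VCAM1 and -0.17 with anti-VLA4, against -0.07 over all genes in each (-0.065 and -0.074). The shares lower by the fold were near those of all genes, and the anti-VLA4 log2 ratio was -0.053 when centred on the median gene and -0.044 without the 10 cells highest in each library.

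Other measures moved beside these endothelial values, and their part was not tested. Pericyte markers in the endothelial-like class summed to 149, 246, 482 and 509 CPM, with all 9 detected in every library. Microglia markers summed to 817, 1018, 1024 and 993 CPM, with all 10 detected in every library. Neutrophil markers summed to 6.34, 25.2, 3.32 and 2.03 CPM, high after stroke alone, with 3 or 4 of the 7 at 0 in each library. Genes of dissociation stress summed to 3388, 2713, 2927 and 3037 CPM. Log2 ratios of all counted genes also shifted with gene span, the length of the gene in the genome. The trend at 10 and 100 kilobases was 0.05 and -0.12 for stroke over sham. It was 0.10 and -0.27 for anti-VCAM1 over stroke, and 0.09 and -0.29 for anti-VLA4 over stroke. Its part in the values of single roles was not tested. Without cluster 3, the summed log2 ratios were 0.31, -0.23 and -0.16 for stroke over sham, anti-VCAM1 over stroke and anti-VLA4 over stroke, as large as with it.

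Per cell, after thinning each cell to 2000 UMIs, the median endothelial-like cell held 5 member UMIs in all 4 libraries. The difference between sham and stroke was not only in the upper part of the distribution. Without the 10 cells with the most member UMIs, the unthinned summed level was 2782 CPM in sham and 3462 CPM after stroke. Thinned to 1000 UMIs, the medians were 2, 3, 2 and 3 UMIs. At 2000 UMIs, cells with no member UMI made up 4.39%, 2.55%, 3.54% and 2.87%. The 90th percentile was 12, 16, 13 and 14 UMIs, and the share of cells above the 95th percentile of sham (18 UMIs) was 4.39%, 7.12%, 4.76% and 4.25%. The exact binomial intervals were 2.70% to 6.69%, 5.11% to 9.60%, 3.91% to 5.74% and 3.55% to 5.04%, which cover the counting of cells in 1 library each and are no comparison of groups. With 95, 106, 302 and 283 cells left out as too shallow, these shares cover 456, 548, 2204 and 2963 cells. Cells with exactly 18 UMIs numbered 3, 8, 11 and 30, and cells just above, with 19, numbered 6, 6, 17 and 19. Thinned to 1000 UMIs with its own sham percentile, the share was 3.36%, 6.14%, 4.73% and 4.97%. Over the 6 alternatives run, this one included, the anti-VLA4 share was 4.97% to 5.91%, always above the 4.25% of the main processing.

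**Figure D3:**
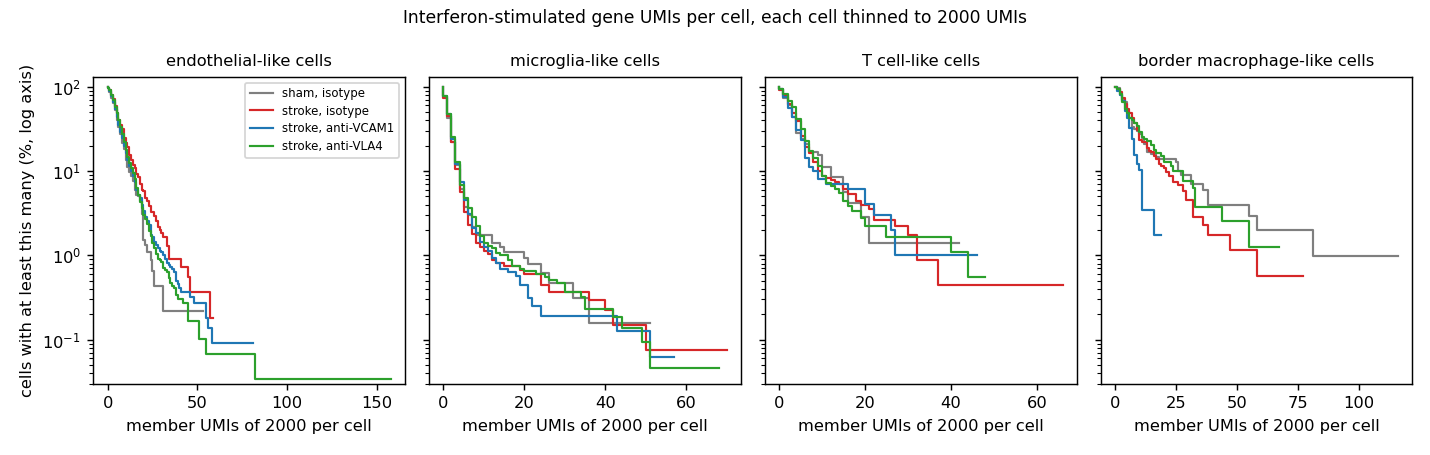
Share of cells (log axis) holding at least a given number of interferon-stimulated gene UMIs after thinning every cell to 2000 UMIs, by class and library. The endothelial-like stroke line runs above the other 3 from 10 to 45 UMIs, and no border macrophage-like cell of the anti-VCAM1 library passes 19 UMIs.

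Microglia-like cells differed little in sum. The stroke library was at 1.05-fold sham (log2 ratio 0.07, interval 0.02 to 0.12), anti-VCAM1 at 0.957 of stroke and anti-VLA4 at 1.05-fold stroke. With cells named from their own markers, stroke over sham and anti-VLA4 over stroke both changed sign, to -0.030 and -0.038. After stroke, 5 of 35 counted genes were at least 1.5-fold higher (Ifit1, Oasl2, Oas1a, Ifi27l2a and Gbp5), where 2.76% of all 11136 counted genes were, and 1 was lower (Rtp4), where 1.87% were. With anti-VCAM1, 0 were higher, where 1.13% of all were, and 5 were lower (Ifit1, Ifit2, Ifit3b, Oasl2 and Rsad2), where 1.04% were. With anti-VLA4, 1 was higher (Iigp1), where 1.22% of all were, and 0 were lower, where 1.83% were. The median log2 ratios were 0.08, -0.12 and 0.11, against -0.04, 0.03 and 0.06 over all genes.

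Ifi27l2a in microglia-like cells was at 18.1, 37.9, 46.9 and 47.7 CPM. Sham was lowest and all 3 stroke libraries stood above it, with a log2 ratio of 1.02 (interval 0.73 to 1.41) for stroke over sham, and 48, 149, 162 and 229 cells held a UMI of it. The further genes Ifitm3, which blocks viral entry, and Ly6a, a surface protein, ran the same way at 20.5, 40.8, 46.7 and 41.3 CPM and at 6.05, 14.8, 25.8 and 25.1 CPM. Endothelial markers in the microglia-like class also ran 47, 74, 111 and 98 CPM, and their part was not tested. Rtp4, a chaperone of taste receptors that interferon induces, went the other way at 16.8, 8.78, 12 and 12.3 CPM. Trim30a and Bst2, which had the most UMIs, were near level at 128, 132, 136 and 144 CPM and at 112, 118, 127 and 128 CPM.

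The Ifit genes of microglia-like cells were low and sat in few cells. Ifit1 was at 2.34, 8.24, 1.58 and 5.67 CPM, but 93.5% of its 77 UMIs after stroke came from 10 cells, and only 15 cells held any. Ifit2 was at 13.1, 16.5, 8.61 and 15.4 CPM and Rsad2 at 3.90, 3.96, 1.98 and 5.00 CPM. The 4 Ifit genes summed to 32.2, 43, 23.1 and 42.3 CPM, so the anti-VCAM1 library was lowest. Without the 10 cells with the most member UMIs in each library, 0 of 31 genes were past the fold downward with anti-VCAM1, and the summed log2 ratio was 0.03 in place of -0.06. Thinned to 2000 UMIs, the share of cells above the sham 95th percentile (5 UMIs) was 3.76%, 3.28%, 4.59% and 4.83%, and the medians were 1 UMI throughout. Ifit3 UMIs sat largely in cells high for the other members, and Trim30a UMIs much less so. The 10% of microglia-like cells highest for all other members held 95.7%, 92.6%, 81.0% and 87.4% of Ifit3 UMIs but 24.9%, 20.7%, 21.3% and 22.9% of Trim30a UMIs.

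**Figure D4:**
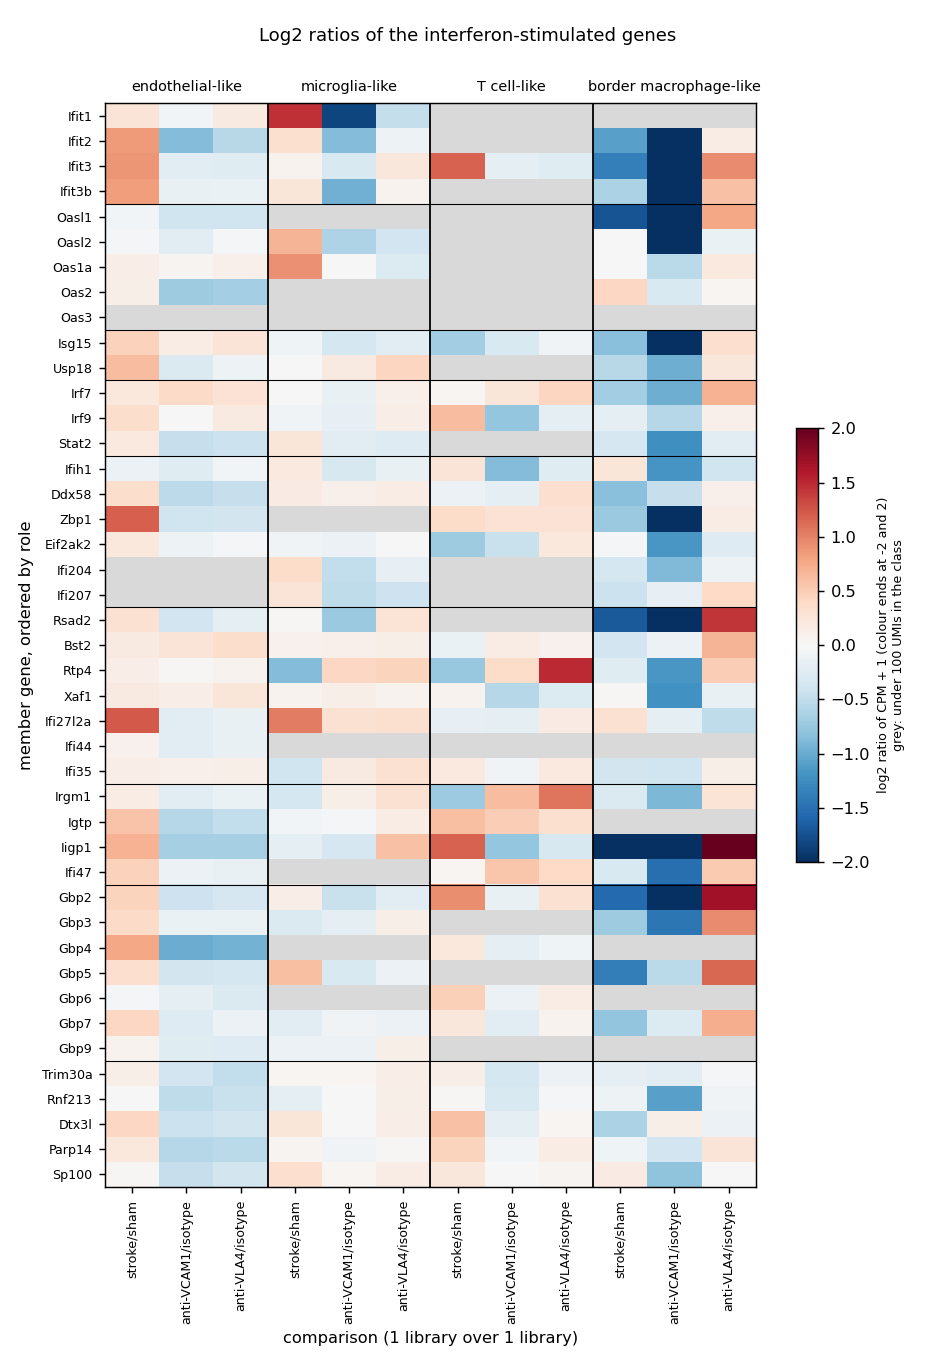
Log2 ratios (CPM + 1) of the 43 genes in 4 classes and 3 comparisons, red higher and blue lower, with colours ending at -2 and 2 and grey where a gene had under 100 UMIs in the class. Most endothelial-like genes are red for stroke over sham and blue for both antibodies, and the anti-VCAM1 column of border macrophage-like cells is the darkest blue.

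In border macrophage-like cells, which line vessels and meninges, most interferon-stimulated genes were lower with anti-VCAM1 than after stroke. The summed level was 0.647 of stroke (log2 ratio -0.63, interval -0.72 to -0.54). Of 36 counted genes, 23 were at least 1.5-fold lower, where 7.84% of all 4719 counted genes were, and 0 were higher, where 6.17% were. The median log2 ratio was -1.03 over the 36 genes and 0.01 over all genes, and 35 of 36 were below 0. These values rest on 63 anti-VCAM1 cells.

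The 4 lowest anti-VCAM1 ratios belonged to Ifit2, Oasl1, Ifit3 and Iigp1, each with 0 to 2 UMIs in that library. Ifit2 was at 177, 83.0, 2.32 and 92.4 CPM, from 154, 105, 1 and 49 UMIs. Ifit3 was at 193, 74.3, 4.64 and 143 CPM, from 168, 94, 2 and 76 UMIs (anti-VCAM1 over stroke, log2 interval -7.07 to -2.11). Isg15 was at 345, 193, 30.1 and 243 CPM, a log2 ratio of -2.64 (interval -3.61 to -1.88) with anti-VCAM1. For all 3 genes the anti-VCAM1 library was lowest, and its interval lay under those of the other libraries. These intervals take UMIs as independent and leave out the uneven spread over cells. The 20 stroke cells highest for the other members held 76.2%, 67.0% and 68.4% of the Ifit2, Ifit3 and Isg15 UMIs of that library.

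Rsad2 was at 154, 47.4, 4.64 and 130 CPM and Zbp1 at 92.0, 54.5, 6.96 and 60.3 CPM. Oasl1 had 61, 26, 0 and 19 UMIs, so stroke was at least 2.95-fold higher than anti-VCAM1, taking 3 UMIs of that library as the limit, and the median ratio given above was the same with Oasl1 at that limit. Gbp2 was at 62.1, 20.6, 2.32 and 67.9 CPM, and Iigp1, from 150, 51, 1 and 197 UMIs, at 173, 40.3, 2.32 and 371 CPM. Irf7, the factor that amplifies type I interferon, was at 113, 69.6, 34.8 and 113 CPM. Anti-VCAM1 was thus the lowest library and stroke lay under sham for each of these genes. Anti-VLA4 stood above stroke for Rsad2, Gbp2, Iigp1 and Irf7, but for Zbp1 and Oasl1 the intervals of that ratio spanned 0 (-0.51 to 0.77 and -0.13 to 1.71).

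Other members differed less between libraries. Ifi207, a DNA sensor of the AIM2-like family, was at 694, 515, 461 and 677 CPM. Ifi27l2a was at 625, 771, 673 and 543 CPM and Trim30a at 221, 193, 167 and 189 CPM. Bst2 was at 593, 456, 422 and 730 CPM, close to stroke with anti-VCAM1 but past the fold with anti-VLA4. Leaving out Ifi27l2a, the gene with the most UMIs, the summed log2 ratios were -0.51, -0.74 and 0.45 in place of -0.39, -0.63 and 0.32 for the 3 comparisons.

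**Figure D5:**
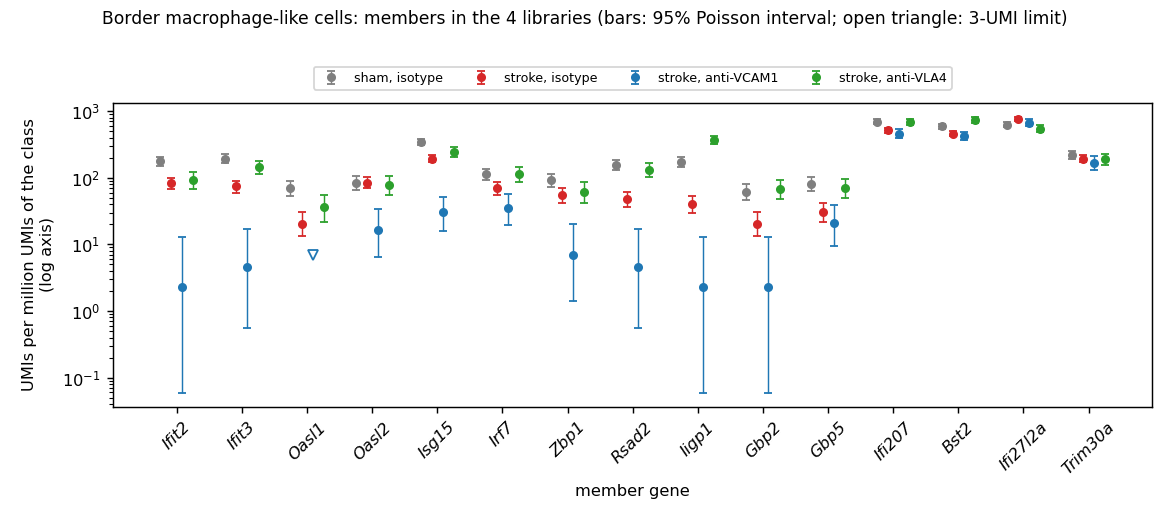
Levels of 15 interferon-stimulated genes in border macrophage-like cells of the 4 libraries (CPM, log axis, bars are 95% Poisson intervals, the open triangle is the 3-UMI limit where 0 were counted). For Ifit2, Ifit3, Isg15, Zbp1 and Iigp1 the anti-VCAM1 library lies under the rest, and Ifi207, Ifi27l2a and Trim30a differ by less than 1.5-fold in all 3 comparisons.

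The other 2 comparisons in border macrophage-like cells rested on few cells. Stroke was at 0.761 of sham (log2 ratio -0.39, interval -0.45 to -0.34), with 15 of 36 genes at least 1.5-fold lower, where 4.77% of all were, and 0 higher, where 3.73% were. Anti-VLA4 was at 1.25-fold stroke (log2 ratio 0.32, interval 0.25 to 0.38), with 11 genes higher, where 5.66% of all were, and 0 lower, where 10.1% were. The median log2 ratios were -0.38 and 0.21, against -0.01 and -0.05 over all genes. The 10 cells with the most member UMIs held 53.1%, 27.1%, 45.1% and 51.2% of them in the 4 libraries, and 1 sham cell held 16.0%. Without those 10 cells in each library the sums were 3305, 3483, 2141 and 3214 CPM. The stroke over sham log2 ratio then became 0.076 and the anti-VLA4 over stroke ratio -0.12, both with the sign turned. Anti-VCAM1 over stroke became -0.70 with 13 of 19 counted genes lower. For this and the other counts with cells left out, the share over all genes was not computed. These 10 cells came from 116, 194, 63 and 90 cells, so the smallest share was taken from stroke. Without the highest 10% of cells in each library instead, neither sign turned, and anti-VCAM1 over stroke was -0.43. Without the shared barcodes, stroke over sham was -0.52 with 13 of 35 genes lower.

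Some of these cells held RNA of other cells, and some held little of the class markers. In the 10 anti-VLA4 cells with the most member UMIs, endothelial markers summed to 4676 CPM, against 92, 27 and 724 CPM in the same cells of sham, stroke and anti-VCAM1. Border macrophage markers of the 10 such anti-VCAM1 cells summed to 2514 CPM, against 4478 CPM in its other cells. Microglia markers summed to 3796, 2648, 5643 and 1512 CPM in the 10 such cells of each library. In the other cells microglia markers summed to 3848, 3696, 3481 and 2923 CPM, and their part was not tested. In the 10 such cells of the stroke library, border macrophage markers summed to 503 CPM, against 4699 CPM in the other 184 cells. Endothelial, microglia and dendritic markers were lower there too. T cell and astrocyte markers were at 53.9 and 144 CPM, against 46.8 and 45.1 CPM. The markers of these 10 cells thus did not bear out the class name, and they held 27.1% of its member UMIs after stroke. Over the whole class, endothelial markers summed to 55, 47, 325 and 1750 CPM. Ly6a, which is also strong in endothelium, was at 42.6, 26.1, 46.4 and 385 CPM. When cells were named one by one from their markers, 51, 79, 26 and 45 border macrophage-like cells were left, with endothelial markers at 95.7, 64.2, 374 and 122 CPM. Their summed member level was 5638, 4699, 2711 and 5522 CPM, in the same order as before.

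Per cell, thinned to 2000 UMIs, the median border macrophage-like cell held 6, 6, 5 and 5 member UMIs, so the typical cell was close in all libraries. The 90th percentile was 26, 21, 10.3 and 24.8 UMIs and the highest cell 116, 77, 19 and 67 UMIs. Above the sham 95th percentile (38 UMIs) lay 4 of 101, 3 of 174, 0 of 58 and 3 of 79 cells. The interval for the 0 of 58 reached 6.16%, which overlaps the intervals of the other 3 libraries. The 10% of cells highest for all other members held a median of 42.4%, 34.0%, 14.7% and 49.6% of a member's UMIs, over 39, 39, 10 and 36 members with enough UMIs, against 9.66%, 9.41%, 12.3% and 12.7% of all UMIs. Over the 10 members with enough UMIs in every library, the medians were 31.3%, 25.5%, 14.7% and 36.7%. In sham they held 83.9% of Ifit3 UMIs and 18.2% of Ifi207 UMIs.

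In T cell-like cells, the sums were close and the direction after stroke depended on the processing. Stroke over sham was 0.07 (interval -0.02 to 0.17) and became -0.047 without the shared barcodes. Anti-VCAM1 over stroke was -0.11 (interval -0.20 to -0.01) and anti-VLA4 over stroke was 0.11 (interval 0.03 to 0.19). With cells named from their own markers, anti-VCAM1 over stroke changed sign, to 0.018. After stroke, 5 of 26 counted genes were at least 1.5-fold higher (Ifit3, Irf9, Igtp, Iigp1 and Gbp2), where 6.41% of all 4851 counted genes were. Another 4 were lower (Isg15, Eif2ak2, Rtp4 and Irgm1), where 14.1% were. With anti-VCAM1, 1 was higher (Irgm1) and 3 were lower (Irf9, Ifih1 and Iigp1), where 5.46% and 8.31% of all were. With anti-VLA4, 2 were higher (Rtp4 and Irgm1) and 0 lower, where 2.93% and 10.6% were. The median log2 ratios were 0.20, -0.18 and 0.11, against -0.07, -0.04 and -0.06 over all genes.

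Sp100 had the most UMIs in T cell-like cells, at 298, 348, 350 and 361 CPM, and Ifi27l2a stood at 352, 314, 278 and 351 CPM. Ifit3 was at 22.8, 52.8, 46.4 and 44.3 CPM, so sham, with 13 UMIs, was lowest. Isg15 went the other way at 173, 106, 85.6 and 101 CPM, but in sham only 16 cells held it, with 93.9% of its 99 UMIs in 10 cells. The 10 cells with the most member UMIs held 46.6%, 29.8%, 39.5% and 27.4% of the member UMIs of the class. In the 10 such sham cells, microglia markers summed to 6301 CPM and T cell markers to 2957 CPM, and 2 of these cells had shared barcodes. Microglia markers in this class summed to 3247, 1021, 2068 and 456 CPM, beside T cell markers at 3340, 4792, 4479 and 5939 CPM, and their part in these values was not tested. The share of thinned cells above the sham 95th percentile (16 UMIs) was 4.23%, 5.29%, 6.06% and 3.87%, with wide intervals that all overlap.

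Upstream of these genes, 21 interferon ligand genes were in the table, and only Ifng, the gene of interferon gamma, was counted in any main class. It was found in T cell-like cells at 96.4, 114, 98.1 and 100.2 CPM, which did not differ beyond counting error. In endothelial-like, microglia-like and border macrophage-like cells all ligands together summed to under 1 CPM in each library (0 to 0.79). The receptor genes moved little outside T cell-like cells. Of 5 counted receptor genes, 0 passed the fold in either direction in endothelial-like, microglia-like or border macrophage-like cells in any of the 3 comparisons. In T cell-like cells, of 5 counted, 1 was lower after stroke, 1 higher with anti-VCAM1 and 1 lower with anti-VLA4. The shares over all genes there were 14.1%, 5.46% and 10.6%. The receptor sum with anti-VLA4 had a log2 ratio to stroke of -0.28 (interval -0.41 to -0.15). Ifnar1, a chain of the type I receptor, was at 244, 263, 208 and 206 CPM in endothelial-like cells and 93.2, 103, 99.7 and 113 CPM in border macrophage-like cells.

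Among the kinases, factors and inhibitors of the pathway, 12 genes were counted in endothelial-like cells. Only Irf8, a factor of macrophages and microglia, was past the fold, from 0, 14, 33 and 54 UMIs. It was at least 4.07-fold higher after stroke than in sham, and lower with anti-VCAM1 than after stroke. The microglia markers given above for this class were also higher after stroke than in sham, but not lower with anti-VCAM1. Their part was not tested. In border macrophage-like cells, Irf1, a factor that interferon gamma induces, was at 170, 116, 53.3 and 189 CPM, so the anti-VCAM1 library was lowest. In microglia-like cells, 1 of 13 was past the fold in any comparison, Irf1 with anti-VLA4, at 110, 102, 72.9 and 62.7 CPM. Genes of dissociation stress there summed to 16766, 13707, 10910 and 9175 CPM, and their part was not tested. In T cell-like cells, 5 of 11 were lower after stroke, among them Irf8 and the inhibitors Socs1 and Socs3, where 14.1% of all genes were, beside the lower microglia markers given above.

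Of the 60 further interferon-induced genes in the table, 43 were counted in endothelial-like cells. After stroke 7 were at least 1.5-fold higher and 0 lower, with anti-VCAM1 1 higher and 5 lower, and with anti-VLA4 1 higher and 4 lower. The shares over all genes were 4.97% and 4.31%, 2.17% and 6.62%, and 2.17% and 7.51%, so the lower counts with both antibodies were near those of all genes. Nlrc5, the activator of MHC class I genes, was at 21.0, 32.5, 11.8 and 14.1 CPM, and Irgm2, a regulator of GTPases, at 66.6, 92.0, 50 and 55.3 CPM. In border macrophage-like cells, 38 were counted and 21 were at least 1.5-fold lower with anti-VCAM1, with a median log2 ratio of -0.65, against 7.84% lower and a median of 0.01 over all genes. Cxcl9, a chemokine that interferon gamma induces, was at 160, 114, 0 and 268 CPM there, and stroke was at least 16.4-fold higher than anti-VCAM1 at the 3-UMI limit. Cxcl10, its relative, was at 184, 41.1, 27.8 and 217 CPM. MHC class I genes summed to 3255, 2768, 2688 and 3533 CPM in border macrophage-like cells and to 2473, 2677, 2579 and 2943 CPM in endothelial-like cells.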

How the data were processed

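The 4 deposited matrices hold whole-number UMI counts for each gene in each barcode, and their headers name Cell Ranger 7.0.1. The submitters' processing notes name Cell Ranger 6.0.0, Seurat 4.3.0.1, mm10 and GRCh38, with no role for each. Counting options are not given in the sources used here. Groups were taken from the sample titles.

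Cells were kept with at least 500 UMIs, 200 genes and at most 10% mitochondrial UMIs. Scrublet, at an expected rate of 0.05, marked 9, 24, 58 and 124 cells (0.590%, 0.840%, 1.23% and 1.96%), which were left out. Kept cells were clustered together (2000 variable genes, 30 principal components, 15 neighbours, Leiden resolution 1) without 302 genes (the members, other listed interferon, MHC and stress genes, Malat1, and mitochondrial, ribosomal and haemoglobin genes). Of 20 clusters, 19 were named from markers, and cluster 19 (8, 14, 14 and 3 cells) stayed unnamed. Classes with at least 50 cells in every library were compared. UMIs were summed per class and library. With 1 library per group there was no test. Intervals were exact Poisson for levels, exact Clopper-Pearson for shares and conditional binomial for ratios, at 95%. Single genes used a pseudocount of 1 CPM.

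The genes named in full were, per class and comparison, the 4 highest and 4 lowest ratios, and the gene with the most UMIs in each role. The rest are given by counts, with some named beyond the rule after their values were seen. The members and lists were chosen with earlier results of these data known. The ratio and interval code was tested on simulated counts. Alternatives were other clustering, naming, filters, depths, scalings and left-out cells, and 2 of these (shared barcodes and the highest 10% of cells) were chosen after seeing the data. Python 3.11.15, numpy 2.4.6, scipy 1.17.1, scanpy 1.11.5 and leidenalg 0.10.2 were used. A result on the pathway list is not reported here.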

Additional observations from a re-analysis of the deposited data

Results flagged for a closer look

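Classes moved in opposite directions under the same comparison, with intervals of counting error away from 0 on both sides, and the difference between classes was not tested. For stroke over sham, the summed log2 ratio was 0.28 in endothelial-like and 0.07 in microglia-like cells but -0.39 in border macrophage-like cells. For anti-VLA4 over stroke it was 0.07 in microglia-like, 0.11 in T cell-like and 0.32 in border macrophage-like cells but -0.13 in endothelial-like cells. Both border macrophage-like values changed sign without the 10 cells with the most member UMIs in each library, an unequal share of its cells. They kept it without the highest 10% of cells. Both microglia-like values changed sign with cells named from their own markers (-0.030 and -0.038). These directions thus depend on the processing. With 1 library per group, no library could be compared with others of its group.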

How the results depend on the processing

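No paired analysis was possible because each group is 1 library. In endothelial-like cells the summed log2 ratio kept its sign under all alternatives run, from 0.26 to 0.33 (stroke over sham), -0.24 to -0.14 (anti-VCAM1 over stroke) and -0.16 to -0.043 (anti-VLA4 over stroke). In border macrophage-like cells anti-VCAM1 over stroke ran from -0.79 to -0.43. The other 2 turned sign without the 10 highest cells, but not without the highest 10% of cells. Below, S, V and L stand for stroke over sham, anti-VCAM1 over stroke and anti-VLA4 over stroke, and counts are of genes past 1.5-fold. The share of all genes past 1.5-fold was not computed under the alternatives, so these counts have no background beside them. The cause of a change was not tested except where fewer genes or cells were left.

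Without the 10 cells highest in each library, endothelial-like sums were -0.14 (V) and -0.044 (L, 1 lower). Microglia-like sums were 0.18 (S, 8 higher), 0.034 (V, reversed, 1 higher and 0 lower) and 0.13 (L, 3 higher). T cell-like sums were -0.21 (V) and 0.19 (L, 0 higher), with 1 higher and 0 lower for S. Border macrophage-like sums were 0.076 (S, reversed, 1 higher and 1 lower) and -0.12 (L, reversed, 2 higher and 6 lower), with 13 lower for V, over 19 counted genes. Without the highest 10% of cells, endothelial-like sums were -0.15 (V) and -0.043 (L), microglia-like 0.12 (S, 3 higher) and 0.0086 (V, reversed, 1 higher and 1 lower, with 1 lower for L), T cell-like -0.14 (S, 1 higher and 2 lower) and 0.27 (L), and border macrophage-like -0.12 (S, 4 lower), -0.43 (V, 10 lower) and 0.092 (L, 2 higher and 3 lower).

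With cells named on their own markers, microglia-like sums were -0.030 (S, reversed, 3 higher and 3 lower), -0.16 (V, 9 lower) and -0.038 (L, reversed, 0 higher and 1 lower). T cell-like sums were -0.14 (S) and 0.018 (V, reversed, 3 higher and 1 lower), with 1 higher and 1 lower for L. Border macrophage-like sums were -0.26 (S, 1 higher and 3 lower), -0.79 (V, 6 lower) and 0.23 (L, 4 higher and 2 lower), over 11 counted genes. Shares of cells above the sham percentile were 5.24% (endothelial-like, anti-VLA4), 3.37% (microglia-like, anti-VLA4), 1.32% (T cell-like, anti-VCAM1) and 0% (border macrophage-like, stroke and anti-VLA4).

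Thinned to 1000 UMIs, which left 36, 20, 2 and 4 counted genes in endothelial-like, microglia-like, T cell-like and border macrophage-like cells, sums were 0.33 (endothelial-like S, with 5 lower for L), 0.11 (microglia-like L, 0 higher, with 1 higher and 1 lower for V), -0.29 (T cell-like S, 0 higher and 1 lower), 0.23 (T cell-like L, 0 higher, with 0 higher and 1 lower for V), and -0.33, -0.50 and 0.20 (border macrophage-like S, 0 lower, V, 1 lower, and L, 1 higher). The microglia-like anti-VLA4 share was 3.84%. Centring on the median gene gave -0.14 and -0.053 (endothelial-like V and L) and 0.0097 (microglia-like L, 0 higher), with 2 higher for T cell-like V. Removing the trend with gene span gave -0.11 and 0.0084 (microglia-like V and L, 0 higher for L), 3 and 0 higher for T cell-like S and V, and 1 lower for border macrophage-like L. Without the gene with the most UMIs, sums were -0.24 and -0.16 (endothelial-like V and L) and -0.51, -0.74 and 0.45 (border macrophage-like S, V and L). Without the cluster low in Malat1 the endothelial-like L sum was -0.16.

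With called doublets kept, sums were -0.017 and 0.12 (microglia-like V and L) and -0.056 (T cell-like S), with 3 higher for microglia-like S, 3 lower for V, 2 higher for L, and 0 higher and 1 lower for T cell-like V, and the endothelial-like anti-VLA4 share was 5.30%. Without shared barcodes, sums were -0.047 (T cell-like S) and -0.52 (border macrophage-like S), 0 were higher for microglia-like L, and the endothelial-like anti-VLA4 share was 5.44%. At resolution 0.5, border macrophage-like sums were -0.22 (S, 9 lower), -0.72 and 0.22, and the endothelial-like anti-VLA4 share was 5.20%. The stricter cell filter gave 0 higher for microglia-like L and endothelial-like shares of 6.31% (anti-VCAM1) and 5.91% (anti-VLA4). A pseudocount of 5 CPM gave 2, 0, 3 and 0 higher for microglia-like S and L and T cell-like S and V, and 2 lower for microglia-like V. A minimum of 50 UMIs gave 2 lower for microglia-like S and 9 and 2 higher for T cell-like S and V. A minimum of 200 UMIs gave 3 and 0 higher for microglia-like S and L and 2 lower for V, 0 higher for all T cell-like comparisons with 1 and 0 lower for S and V, and 7 and 11 lower and 6 higher for border macrophage-like S, V and L.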
